A study of Mus musculus with 11 samples.

Results

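The 5 genes described here lie side by side on mouse chromosome 12: Arg2, the antisense gene Gm48780, Vti1b, Rdh11 and Zfyve26. They were chosen as adjoining genes whose share of allele-assigned counts from the BL6 copy differs between old and young mice, and they are 5 of the 55401 genes in the tables. The share of BL6 counts by age, and the counts of each allele that make it up, are the values these genes were chosen by, and they are given as a description with no test. The RNA came from the hippocampus of 11 female F1 mice, each carrying 1 BL6 and 1 CAST genome, with 1 polyadenylated, directional library per mouse. BL6 is a common laboratory strain and CAST is a strain derived from wild mice, so single-base differences between them let reads be assigned to a parental copy.

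The old group held 5 mice. Old replicates 1 and 2 were 101 weeks old and old replicate 5 was 104 weeks old, and all 3 had a BL6 mother and a CAST father. Old replicates 3 and 4 were 103 weeks old and had a CAST mother and a BL6 father. The young group held 6 mice aged 8 or 9 weeks, of which replicates 3, 4 and 6 had a BL6 mother and replicates 1, 2 and 5 a CAST mother. The labels name no engineered allele and no agent given to the mice. The labels' protocol gives an age range for old animals that begins above the 101 weeks of old replicates 1 and 2. The labels name no litter, parent or library batch, so age and any such difference between the groups cannot be told apart.

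Each library held 111.1 to 214.8 M counts, of which 39.7 to 76.9 M were assigned to an allele. All 7 hippocampal marker genes were measured, with a summed level of 1123 to 1866 counts-per-million units (CPM) among old mice and of 868.6 to 1991 CPM among young mice. Of 9 marker lists, no gene was at 0. The 5 choroid plexus markers summed to 23.25 to 988.6 CPM among old and 20.16 to 921 CPM among young mice. They were highest in old replicates 2 and 3 and in young replicates 2 and 4. The 4 thalamic markers summed to 81.06 to 182.5 CPM among old and 71.98 to 424.4 CPM among young mice, highest in young replicate 1. The part of choroid plexus and thalamus in the levels was not tested. The 6 striatal markers, which belong to a neighbouring brain region, summed to 721.3 CPM in old replicate 3, to 2165 CPM in young replicate 2 and to 1427 CPM in young replicate 6, against 79.23 to 203.6 CPM in the other 8 libraries.

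Arg2 encodes the mitochondrial arginase, which turns arginine into ornithine and urea and so feeds polyamine and proline synthesis. Vti1b is a SNARE protein, one of the membrane-anchored helices that zip together to fuse vesicles with their target, and works with Stx7, Stx8 and Vamp8 in the fusion of late endosomes and lysosomes. Rdh11 is a retinol dehydrogenase of the endoplasmic reticulum that reduces retinal. Zfyve26, also called spastizin, binds spatacsin and the AP-5 adaptor, acts in the reformation of lysosomes, and is mutated in a form of hereditary spastic paraplegia. Gm48780 is annotated as an antisense RNA.

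In GENCODE M21 on GRCm38 the 5 genes span chr12:79130777-79296304, a block of 165.5 kb. Arg2 (ENSMUSG00000021125.6) occupies 79130777 to 79156301 on the plus strand. Gm48780 (ENSMUSG00000111929.1) occupies 79150936 to 79151932 on the minus strand, wholly inside the span of Arg2, and 116 of its 997 bases are exonic in both genes. Vti1b (ENSMUSG00000021124.13) occupies 79156017 to 79172667 on the minus strand, so that Arg2 and Vti1b run towards each other and share 285 exonic bases at their 3′ ends. Rdh11 (ENSMUSG00000066441.14) occupies 79174337 to 79192293 and Zfyve26 (ENSMUSG00000066440.5) occupies 79232346 to 79296304, both on the minus strand. Gaps of 4084, 1669 and 40052 bases separate Gm48780 from Vti1b, Vti1b from Rdh11, and Rdh11 from Zfyve26.

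The strand setting of the authors' counting is not given in the sources used here. Of the 1428 exonic bases of Arg2, 285 are shared with Vti1b, whose deposited level per length was far higher: a mean of 196.5 TPM (transcripts-per-million units) against 12.08 TPM for Arg2 in old mice. The values of Arg2 and Gm48780 may thus hold counts of an overlapping neighbour and are uncertain to that extent. Vti1b, Rdh11 and Zfyve26 share no exonic base with each other.

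Promoter sequences are shown for Vti1b, Rdh11 and Zfyve26, the 3 of the 5 genes matched in the promoter table. Each runs from 250 bases before to 50 bases after a gene start in RefSeq (GRCm38.p6), 5′ to 3′ on the gene's own strand, which is minus for all 3 genes. They lie at chr12:79172409-79172708 for Vti1b, at chr12:79191806-79192105 and chr12:79190912-79191211 for the starts 1 and 2 of Rdh11, and at chr12:79296233-79296532 for Zfyve26. Capitals mark matches to the E-box hexamer CACGTG, to the CCAAT box, which reads ATTGG on the other strand, and to the GC box GGGCGG, which reads CCGCCC on the other strand, all searched on both strands. The letters are those of the reference genome, which is BL6, and the CAST letters were not used here.
Vti1b: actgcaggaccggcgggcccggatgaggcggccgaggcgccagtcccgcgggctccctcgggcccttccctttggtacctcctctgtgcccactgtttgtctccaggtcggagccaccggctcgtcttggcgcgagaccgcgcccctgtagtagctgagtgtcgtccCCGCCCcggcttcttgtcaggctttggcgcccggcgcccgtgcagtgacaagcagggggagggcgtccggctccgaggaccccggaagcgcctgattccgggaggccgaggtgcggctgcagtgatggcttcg
Rdh11 start 1: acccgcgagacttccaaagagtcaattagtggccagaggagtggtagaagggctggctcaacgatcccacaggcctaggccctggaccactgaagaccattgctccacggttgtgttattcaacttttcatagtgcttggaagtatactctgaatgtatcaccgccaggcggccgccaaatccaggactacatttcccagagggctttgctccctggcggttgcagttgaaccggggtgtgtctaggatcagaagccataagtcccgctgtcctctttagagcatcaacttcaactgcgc
Rdh11 start 2: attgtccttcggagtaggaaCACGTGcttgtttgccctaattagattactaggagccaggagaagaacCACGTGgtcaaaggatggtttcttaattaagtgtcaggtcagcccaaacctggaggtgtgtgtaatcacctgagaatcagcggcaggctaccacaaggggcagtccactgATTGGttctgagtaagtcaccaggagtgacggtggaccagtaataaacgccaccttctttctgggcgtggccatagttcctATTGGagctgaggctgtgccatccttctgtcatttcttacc
Zfyve26: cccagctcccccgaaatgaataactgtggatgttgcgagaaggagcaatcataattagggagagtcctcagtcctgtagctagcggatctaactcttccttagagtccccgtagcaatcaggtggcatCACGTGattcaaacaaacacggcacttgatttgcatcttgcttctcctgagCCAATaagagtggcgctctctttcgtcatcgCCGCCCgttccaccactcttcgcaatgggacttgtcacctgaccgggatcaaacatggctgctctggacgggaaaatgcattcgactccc

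CACGTG, the core of the site bound by several basic helix-loop-helix factors, was matched at 2 places in the window of start 2 of Rdh11 and at 1 place in that of Zfyve26, and 7.15% of 32851 RefSeq promoters of this length hold it. The longer CLEAR element, a palindrome with CACGTG at its centre that is known from lysosomal genes, had no match in these 4 windows and is in 0.3257% of all promoters. CCAAT was matched at 2 places in the window of start 2 of Rdh11 and at 1 place in that of Zfyve26, with 37.41% of all promoters holding it. GGGCGG was matched at 1 place each in the windows of Vti1b and Zfyve26, with a share of 35.66% among all promoters. TATAAA, in 13.62% of all promoters, was not matched in the 4 windows. The Vti1b window is rich in G and C, at 71% with 32 CpG pairs, against a median of 52.67% and 7 pairs over all promoters. A match is a run of letters and not a shown binding site.

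In old mice a smaller share of the allele-assigned counts came from the BL6 copy, for each of the 5 genes and in every old mouse. The old minus young difference of the mean share lay between -17.3 and -12.9 percentage points, and the ratio of CAST to BL6 counts was 1.92 to 2.31 times that in young mice, with a median of 2.02 over the genes. No old mouse overlapped a young mouse in any of the 5 genes. Over all 19578 autosomal genes with at least 20 allelic counts in every mouse, 0.46% had all old mice below all young mice. The allelic fit called a lower BL6 share in old mice for 0.0729% of 24707 genes. That 5 of 5 genes are called there and that their groups do not overlap follows from how they were chosen, and nothing is read from either count.

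Vti1b gave the most precise shares, from 9898 to 25637 allelic counts per mouse. Its BL6 share was 24.1%, 24.7%, 25.7%, 25.2% and 24.9% in old replicates 1 to 5, and in young mice it ran from 39.4% through a median of 40.4% to 42.7%. The 5 old mice sat within 1.57 points of each other and the young mice stood at least 13.7 points higher. The means were 24.9% ± 0.583 (SD, n = 5) and 40.7% ± 1.35 (SD, n = 6). Old Vti1b RNA thus came mostly from the CAST copy, at 3.01 CAST counts per BL6 count, where young Vti1b RNA had 1.46.

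Rdh11 crossed from one side of equality to the other. Its BL6 share was 39.5%, 38.7%, 38.6%, 38.9% and 38.5% in the old mice and 53.7%, 56.6% and 57.5% at the lowest, median and highest of the young mice. All young mice were above 50% and all old mice below. The means were 38.8% ± 0.413 (SD, n = 5) and 56.1% ± 1.34 (SD, n = 6).

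Zfyve26 was close to equal in young mice, at 50.5%, 51.1% and 52.7% for the lowest, median and highest. In old replicates 1 to 5 its BL6 share was 35.9%, 35.1%, 34.2%, 35.5% and 34.4%. Every old mouse lay at least 14.6 points under every young mouse. The means were 35.0% ± 0.716 (SD, n = 5) and 51.3% ± 0.827 (SD, n = 6).

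Arg2 leaned to the CAST copy already in young mice, with BL6 shares of 31.8%, 34.4% and 37.2% at the lowest, median and highest. In old replicates 1 to 5 the share was 21.8%, 21.5%, 22.3%, 18.9% and 22.9%. Old replicate 4 was the lowest, and no old mouse reached the lowest young mouse. The means were 21.5% ± 1.56 (SD, n = 5) and 34.4% ± 2.303 (SD, n = 6).

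Gm48780 had the fewest counts, 105 to 255 allelic counts per mouse. Its BL6 share was 14.1%, 18.02%, 18.9%, 18.1% and 19.4% in old replicates 1 to 5 and ran from 27.0% through a median of 32.1% to 42.7% in young mice. Young replicate 1 was the highest and old replicate 1 the lowest, and the groups stayed apart. The means were 17.7% ± 2.09 (SD, n = 5) and 33.2% ± 5.43 (SD, n = 6).

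Wilson 95% intervals had a half-width of 0.53 to 0.975 points for Vti1b, 1.30 to 2.2 points for Zfyve26 and 1.81 to 3.12 points for Rdh11. They were wider for Arg2, at 2.79 to 5.39 points, and for Gm48780, at 4.28 to 8.81 points. These intervals leave out the spread between mice and treat counts as independent. Counts without molecular identifiers need not be independent molecules, so the intervals may be too narrow even for counting error.

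The genes differed more in the level of the share than in the size of its change, by which they were chosen. The log2 of the CAST to BL6 ratio was higher in old mice by 0.94 for Arg2 (SE 0.0859), 1.21 for Gm48780 (SE 0.173), 1.05 for Vti1b (SE 0.0385), 1.01 for Rdh11 (SE 0.034) and 0.97 for Zfyve26 (SE 0.0282). In young mice the same log2 ratio spread from -0.36 for Rdh11 and -0.08 for Zfyve26 to 0.55 for Vti1b, 0.94 for Arg2 and 1.02 for Gm48780. The BL6 shares of Arg2 and Gm48780 overlapped in both age groups. In young mice the highest Gm48780 share, 42.7%, also lay within the range of Vti1b, 39.4% to 42.7%. The order of Rdh11, Zfyve26 and Vti1b was the same in old as in young mice. Without the 3 striatum-rich libraries the old minus young log2 ratio of BL6 to CAST counts was -1.03 for Arg2, -1.17 for Gm48780, -1.09 for Vti1b, -0.98 for Rdh11 and -0.97 for Zfyve26. Among 19578 genes ranked by the change of share in points, from the most negative, Rdh11 stood at 10 and Zfyve26 at 16. Vti1b stood at 18, Gm48780 at 19 and Arg2 at 46. The sizes, ranks and SEs describe the change the genes were chosen by, and nothing is read from them or from their likeness.

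The share is described here by cross. No old mouse overlapped a young mouse, so a lower old share within each cross was fixed in advance, and only the sizes are given. Within mice of BL6 mothers the old minus young share was -11.7 points for Arg2, -14.1 for Gm48780, -16.1 for Vti1b, -17.02 for Rdh11 and -15.6 for Zfyve26. Within mice of CAST mothers the figures were -14.4, -16.6, -15.2, -17.6 and -17.05 points for the same genes in that order. Whether the maternal copy gave more counts than the paternal copy is a question the choice of genes did not use. For the maternal allele 0 of 5 genes passed in edgeR, against 0.874% of 24707 genes. The log2 ratio of maternal to paternal counts was 0.01 for Arg2 (SE 0.0526), -0.09 for Gm48780 (SE 0.0979), -0.02 for Vti1b (SE 0.0172), -0.01 for Rdh11 (SE 0.0265) and -0.01 for Zfyve26 (SE 0.0205), each with an adjusted p of 1. None of the 5 was under an unadjusted p of 0.05 in edgeR, against 1195 of 24707 genes. DESeq2 called 0 of them too, against 206 of 24707 genes. The change of that ratio with age was likewise called in 0 of 5 genes by edgeR, with adjusted p from 0.912 to 0.995 and a background of 0.0769%. No gene of the 5 was under an unadjusted p of 0.05 there in edgeR, against 1684 of 24707 genes. DESeq2 called 0, against 26 of the 11295 genes to which it gave an adjusted p, and gave none for Gm48780. Counts of 0 of 5 are near all these shares, and nothing is read from them.

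Counts of each allele, scaled to the allelic total of the mouse as CPM, separate the copies behind the share. The CAST copy was higher in every old mouse than in every young mouse for 5 of 5 genes, where 0.842% of 24707 genes had that pattern. The BL6 copy overlapped between the ages in 5 of 5 genes, where 0.704% of all genes had every old mouse below and 0.903% every old mouse above. Overlap was thus the common case over all genes. The counts of each allele make up the share the genes were chosen by, so nothing is read from either count of genes.

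For Vti1b the CAST copy stood at 309.4, 256.3, 255.1, 240.3 and 313.0 CPM in old replicates 1 to 5, and at 129.2, 139.9 and 204.9 CPM for the lowest, median and highest young mouse. Young replicate 2 was the high one and was still below all old mice. The mean was 1.79 times higher in old mice. The BL6 copy of Vti1b was at 98.46, 83.93, 88.29, 80.83 and 104.0 CPM in the old mice, and at 89.16, 98.38 and 133.1 CPM in the lowest, median and highest young mouse. Old replicates 1 and 5 lay inside the range of the young mice and the other 3 old mice just under it.

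For Rdh11 the CAST copy was at 27.41, 22.49, 23.11, 23.23 and 27.30 CPM in old mice, against 10.27, 12.90 and 14.66 CPM for the lowest, median and highest young mouse. The old mean was 1.97 times the young mean, with a clear gap between the groups. Its BL6 copy averaged 15.69 ± 1.67 CPM (SD, n = 5) in old and 16.02 ± 1.73 CPM (SD, n = 6) in young mice, a difference smaller than either SD.

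For Zfyve26 the CAST copy was at 35.11, 53.86, 65.47, 52.28 and 32.05 CPM in old replicates 1 to 5, and at 17.53, 21.31 and 24.64 CPM in the lowest, median and highest young mouse. Old replicates 1 and 5 were the lowest of the old mice and still above the young range. The mean ratio was 2.24. The BL6 copy was at 19.70, 29.08, 34.09, 28.75 and 16.80 CPM in the old mice and between 19.53 and 25.17 CPM in the young mice. For that copy, 3 old mice lay above the young range, 1 inside it and 1 below it.

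For Arg2 the CAST copy averaged 8.46 ± 1.64 CPM (SD, n = 5) in old and 5.44 ± 0.755 CPM (SD, n = 6) in young mice, a ratio of 1.56, with the lowest old mouse at 6.85 CPM and the highest young mouse at 6.28 CPM. Its BL6 copy had an old mean of 2.33 CPM and a young mean of 2.87 CPM. For Gm48780 the CAST copy averaged 3.10 CPM in the old group and 1.961 CPM in the young group, a ratio of 1.58, and the BL6 copy 0.664 CPM and 1.01 CPM. The SD of that BL6 copy was 0.0835 CPM in the old and 0.352 CPM in the young group, with young replicates 1 and 2 at 1.59 and 1.27 CPM as the high ones.

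**Figure D1:**
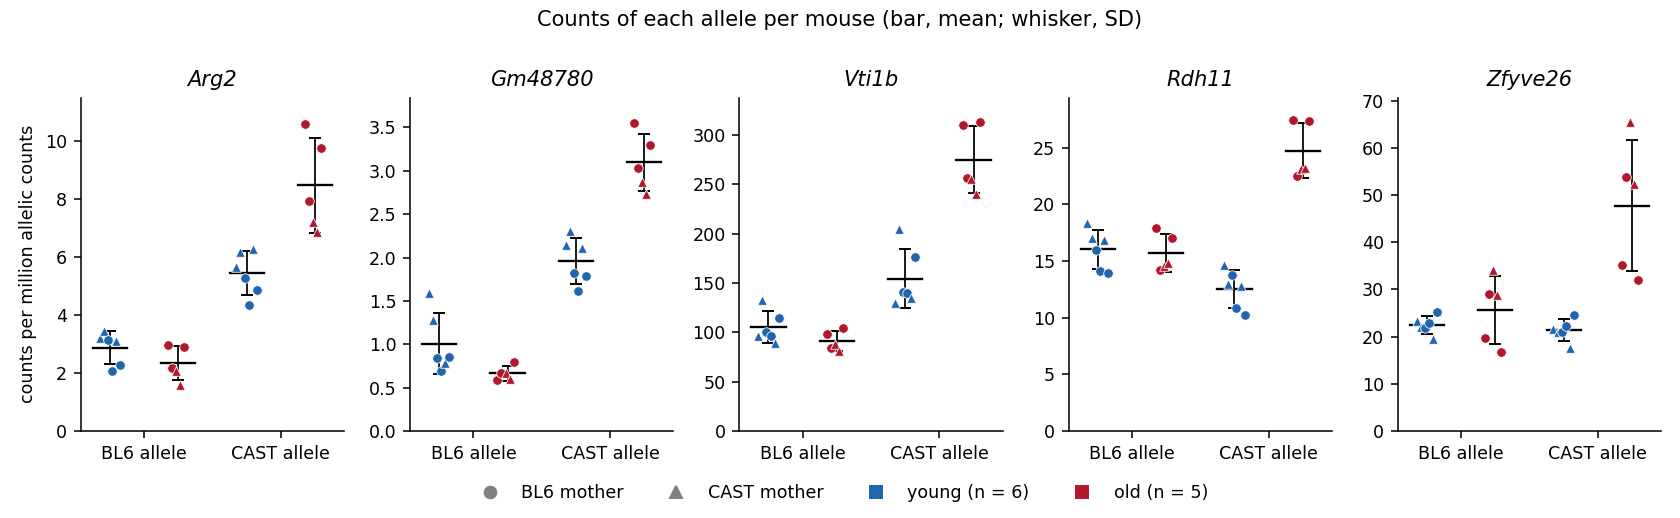
Counts of the BL6 and the CAST copy of the 5 genes in CPM of allelic counts, 1 point per mouse (circles, BL6 mother; triangles, CAST mother; blue, young, n = 6; red, old, n = 5), with the mean as a bar and the SD as a whisker. For the CAST copy every red point lies above every blue point in all 5 panels, while for the BL6 copy the colours overlap. The genes were chosen by the share that these counts make up.

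The share of a gene's counts that could be assigned to any allele was compared between ages as a readout that the choice of genes did not use. It depends on where in the gene reads fall, since only reads over a strain difference can be assigned. Vti1b had 90.1% ± 0.689 of its counts assigned in the old group (SD, n = 5) against 89.5% ± 0.654 in the young group (SD, n = 6). The other genes had mean assigned shares in old and young mice of 48.5% and 49.5% for Arg2, 69.6% and 72.1% for Gm48780, 68.7% and 69.8% for Rdh11, and 55.5% and 54.4% for Zfyve26. In exact two-sided permutation tests over all splits of the mice into 5 and 6, whose smallest possible p is 0.00216, the p was 0.768 for Arg2, 0.236 for Gm48780, 0.147 for Vti1b, 0.361 for Rdh11 and 0.0779 for Zfyve26. No gene of 17563 tested passed after adjustment (0.0% called), with 1634 under an unadjusted p of 0.05 and a lowest adjusted p of 0.478 in these exact tests. With that smallest p, a gene could pass the adjustment only if very many genes lay at or near it. The lack of calls is therefore not read as a result.

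Total level, all counts of a gene whether assigned or not, was higher in the old mean for each of the 5 genes, and 1 of them, Zfyve26, passed the test. The background was 0.229% of 30568 genes called higher in old mice by edgeR's quasi-likelihood test with a term for the mother's strain. Allele-assigned counts are part of the total, so the total level is not independent of the choice of genes. In bulk tissue, a change in the number of cells that express a gene and a change in RNA per cell cannot be told apart.

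Zfyve26 stood at 38.80, 52.62, 57.54, 52.64 and 35.31 CPM in old replicates 1 to 5, and at 26.21, 27.88 and 30.98 CPM in the lowest, median and highest young mouse. The young mice were tightly grouped, and the old mice were all higher but spread widely, with replicates 1 and 5 lowest. Zfyve26 rose by 0.74 on the log2 scale, 1.67-fold (SE 0.124, edgeR adjusted p = 0.0364). Over 16 alternatives the log2 difference stayed between 0.66 and 0.82 and 8 of them called it. The call was lost without old replicate 1 (edgeR adjusted p = 0.0534), 2 (0.131), 3 (0.115) or 4 (0.143), and without young replicate 1 (0.0723), 2 (0.0999) or 3 (0.107). It was also lost without the 3 libraries richest in striatal markers (adjusted p = 0.320, log2 difference 0.71).

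Rdh11 stood at 25.11, 18.61, 18.85, 20.37 and 24.78 CPM in old mice, and at 12.29, 14.63 and 16.39 CPM in the lowest, median and highest young mouse. The groups did not overlap. The log2 difference was 0.58 (SE 0.118) and missed the threshold (edgeR adjusted p = 0.0754). It passed in edgeR without the mother term (adjusted p = 0.0351) or without young replicate 5 (adjusted p = 0.0461), and with DESeq2 (adjusted p = 0.00699).

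Vti1b stood at 177.5, 132.3, 127.0, 129.1 and 179.3 CPM in old mice, and at 83.22, 98.14 and 132.8 CPM in the lowest, median and highest young mouse. Young replicate 2, one of the striatum-rich libraries, reached into the old range, and the other 5 young mice were below it. The log2 difference was 0.52 (SE 0.143, edgeR adjusted p = 0.223). Arg2 was at 9.714, 7.473, 7.337, 6.966 and 9.030 CPM in old mice and between 4.783 and 7.522 CPM in young mice, with a log2 difference of 0.45 (SE 0.146, edgeR adjusted p = 0.305). For Gm48780 the old mean was 1.98 CPM and the young mean 1.45 CPM, and the log2 difference was 0.46 (SE 0.166, edgeR adjusted p = 0.338). Arg2 again overlapped through young replicate 2, and Gm48780 through that library and old replicate 3. Without the 3 striatum-rich libraries the log2 difference was 0.68 for Vti1b, 0.56 for Arg2, 0.52 for Gm48780 and 0.59 for Rdh11, none of which passed in edgeR. In 2 of 5 genes, Rdh11 and Zfyve26, all old mice were above all young mice, against 1.14% of all genes tested.

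**Figure D2:**
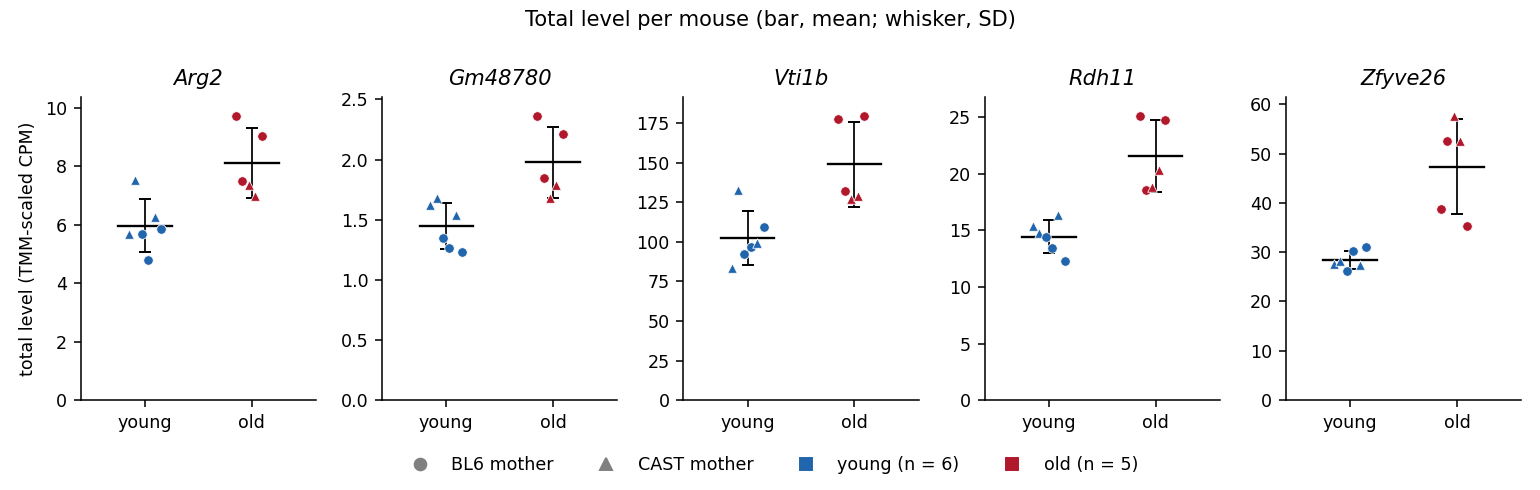
Total level of the 5 genes in TMM-scaled CPM, 1 point per mouse (circles, BL6 mother; triangles, CAST mother; blue, young, n = 6; red, old, n = 5), with the mean as a bar and the SD as a whisker. Old and young mice do not overlap for Rdh11 and Zfyve26, and in the Vti1b panel 1 young mouse at 132.8 CPM lies among the old mice.

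Within the old group the genes did not move as 1 unit. Old replicates 1 and 5 had the highest total levels of Vti1b, Rdh11, Arg2 and Gm48780 and the lowest of Zfyve26. Both copies of Vti1b and both copies of Zfyve26 followed this, while across the 5 old mice the BL6 share ranged over 1.57 points for Vti1b and 1.70 points for Zfyve26. The summed level of 5 neuronal markers was also highest in those mice, at 5173 and 5556 CPM against 3292 to 4229 CPM in the other 3, and its part in these levels was not tested. Between the ages the neuronal sums overlapped, with a young range of 3506 to 4808 CPM. The 4 microglial markers summed to 157.1 to 181.4 CPM among old and 94.29 to 154.9 CPM among young mice, without overlap, and their part in the total levels was not tested. Of those 4 markers, 0 passed for age in edgeR or DESeq2, and 4 were under an unadjusted p of 0.05 in edgeR, against 12.5% of all genes. Of 4 astrocyte markers, DESeq2 called 1 for age and edgeR 0, with 1 under an unadjusted p of 0.05 in edgeR and overlapping sums of 826.6 to 1509 CPM among old and 631.8 to 1151 CPM among young mice. Of 7 hippocampal markers, 0 passed in edgeR or DESeq2 and 3 were under an unadjusted p of 0.05 in edgeR. The part of these lists in the total levels was not tested either.

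The direction of the cross was tested on total level as the second contrast of the study. For CAST against BL6 mothers, 0 of 5 genes passed in edgeR, against a background of 0.206% of 30568 genes. DESeq2 called 0 of 5, against 78 of 30498 genes. None of the 5 was under an unadjusted p of 0.05 in edgeR, against 626 of 30568 genes. Counts of 0 of 5 are near these shares, and nothing is read from them. The log2 differences in edgeR ran from -0.11 for Vti1b (SE 0.144) to 0.13 for Zfyve26 (SE 0.124), each with an adjusted p of 1.00. Whether the age difference depended on the cross was tested as an interaction, with 0 of 5 genes called by edgeR or DESeq2. The interaction was -0.55 for Arg2, -0.64 for Gm48780, -0.43 for Vti1b, -0.44 for Rdh11 and 0.45 for Zfyve26, on the log2 scale, with edgeR adjusted p from 0.420 to 0.499. Of these, Arg2 and Gm48780 were under an unadjusted p of 0.05. Over all 31355 genes edgeR called 0 (0.0%), with 3711 under an unadjusted p of 0.05, and DESeq2 called 52.

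Per length, Vti1b was by far the most abundant of the 5, at a mean of 196.5 TPM in old and 130.9 TPM in young mice. Rdh11 followed at 13.29 and 8.47 TPM and Arg2 at 12.08 and 8.62 TPM, and those 2 genes did not differ beyond their spread. Zfyve26 was at 5.33 and 3.03 TPM and Gm48780 at 4.24 and 2.97 TPM, again with overlapping ranges. Vti1b stood above the other 4 genes in every library. Old and young TPM ranges overlapped in all 5 genes.

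Outside the block, no change of this size was measured in genes with at least 20 allelic counts in every mouse. Within 2 Mb of the outer ends of the block 56 genes were tested for BL6 share by age, of which 5 are the genes described here, 3 lie inside the block and 48 outside. Outside, 0 of 48 passed in edgeR or in DESeq2, against 0.166% of all genes called in either direction by edgeR, and 1 of 48, Smoc1, was under an unadjusted p of 0.05 in edgeR. In 38 of the 48 every mouse had at least 20 allelic counts, and among these the old minus young difference ran from -2.54 to 4.72 points with a median of -0.28. None of the 38 had old and young mice apart.

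Before the block, the nearest tested gene was the non-coding 9230116L04Rik, 26.84 kb from Arg2, with mean BL6 shares of 46.0% in old and 48.5% in young mice. Pigh, which acts in the first step of GPI anchor synthesis, had 50.2% and 52.5%. Plekhh1 had 49.0% and 49.8%, and Tmem229b 53.4% and 54.4%. These genes were near equality at both ages. Plek2, a pleckstrin family member, had only 17.1 allelic counts per mouse on average, with 61.8% and 66.3%.

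After the block, Rad51b begins 0.978 kb beyond Zfyve26 and had 18.9 allelic counts per mouse on average. Its shares were 50.3% in old and 49.9% in young mice, with Wilson half-widths of 16.7 to 25.4 points in single mice, and its fitted log2 change of the BL6 to CAST ratio was 0.06 with an SE of 0.481. The next tested gene was Zfp36l1, an RNA-binding protein that promotes mRNA decay, 811.5 kb on, with 54.3% and 55.9%. The following genes were 1300014J16Rik with 51.9% and 48.0%, 2310015A10Rik with 61.8% and 64.0%, and Actn1, an actin cross-linker, with 54.7% and 54.3%. None of these had old and young mice apart. The far edge of the block is thus less closely placed by these data than the near one.

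**Figure D3:**
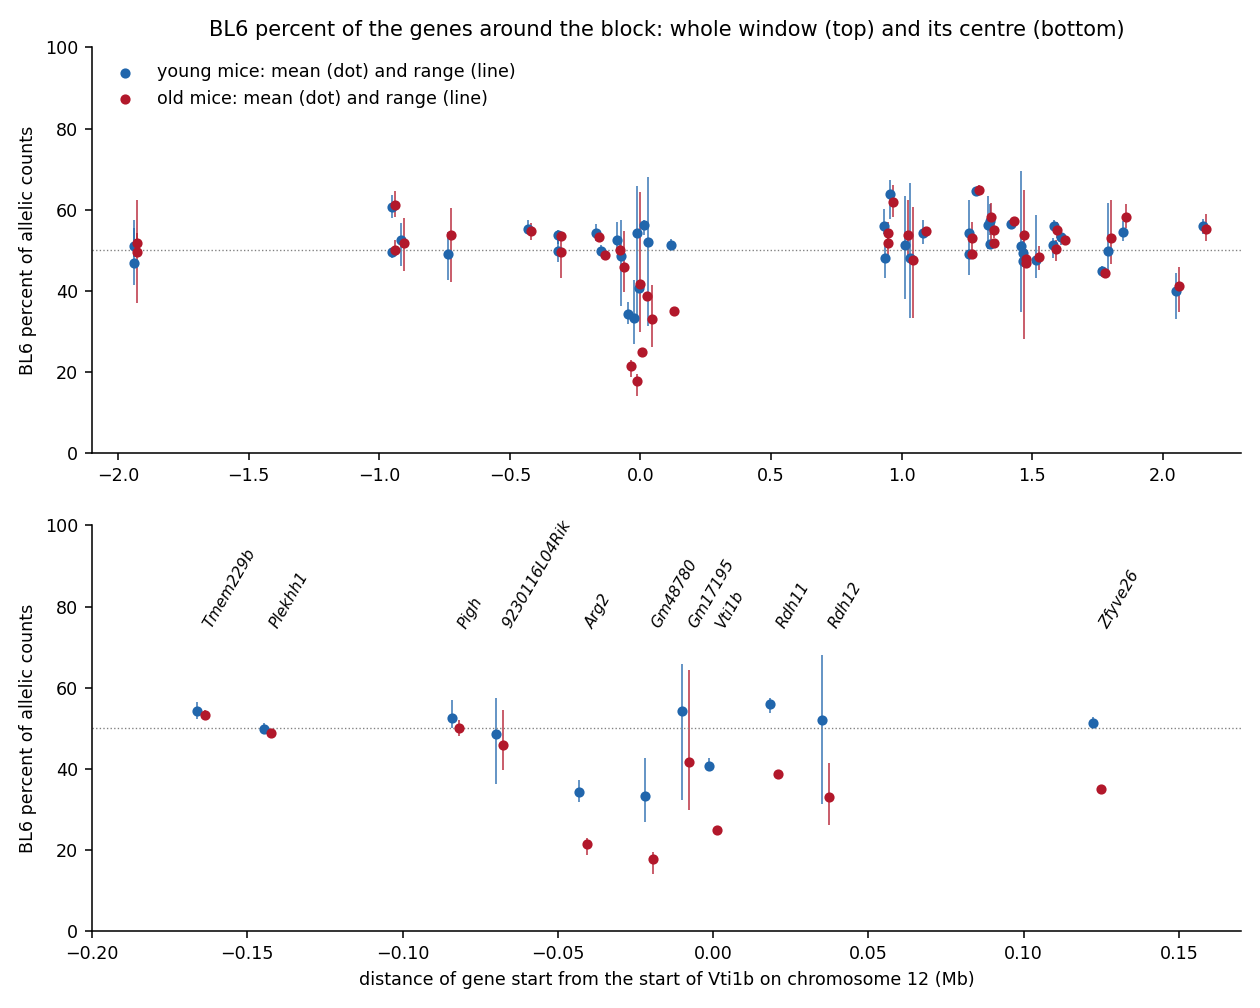
Mean BL6 percent of allelic counts (dots) and range over mice (lines) in young (blue, n = 6) and old mice (red, n = 5) for genes with at least 20 allelic counts in every mouse, by distance of the gene start from that of Vti1b. Blue and red lie together across the window except in the block, where Arg2, Gm48780, Vti1b, Rdh11 and Zfyve26 have red means below the blue ones, by differences of -17.3 to -12.9 points.

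Inside the block lie 3 genes that are not among the 5. Rdh12, a retinol dehydrogenase related to Rdh11 and located between it and Zfyve26 at 79208914 to 79222665 on the plus strand, did not pass for BL6 share (log2 change of the BL6 to CAST ratio -1.14, SE 0.341, edgeR adjusted p = 0.276), and had the lowest p of the 3. It had 21 to 103 allelic counts per mouse, and its BL6 share was 33.7%, 41.5%, 26.2%, 33.3% and 30.2% in old mice, and 31.4%, 52.9% and 68.2% in the lowest, median and highest young mouse. The groups overlapped through young replicates 2 and 4. The difference of means was -19.0 points, beside -15.5 points for Gm48780, which had the highest p of the 5 genes chosen. The CAST copy of Rdh12 averaged 1.05 CPM in the old against 0.337 CPM in the young group, without overlap. Its total level was 1.956 ± 0.366 CPM (SD, n = 5) in old and 0.941 ± 0.232 CPM (SD, n = 6) in young mice, also without overlap, and missed the threshold (log2 difference 1.08, SE 0.216, edgeR adjusted p = 0.0664). The processed pseudogenes Gm17195 and Gm17194 lie within the span of Vti1b, share no exonic base with it, and had log2 changes of the BL6 to CAST ratio of -0.88 (SE 0.365) and -0.89 (SE 0.475) with 13 to 82 allelic counts per mouse.

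Runs of adjoining genes called for BL6 share in the same direction were counted over all autosomes as a description. The 5 genes were chosen as adjoining genes with such a difference, so a run among them follows from the choice. Arg2 also shares exonic bases with Gm48780 and with Vti1b, so their calls need not be separate. There were 5 runs of 2 or more genes, and the longest had 3 genes, one being Arg2, Gm48780 and Vti1b and the other Ncapd2, Scarna10 and Gm28967 on chromosome 6. In the count by adjoining tested genes, the pseudogenes inside Vti1b and then Rdh12 separate Vti1b from Rdh11 and Rdh11 from Zfyve26. Of 16251 genes with at least 100 allelic counts on average, 60 had a log2 change of the BL6 to CAST ratio of -0.9 or lower, the 5 genes among them.

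**Figure D4:**
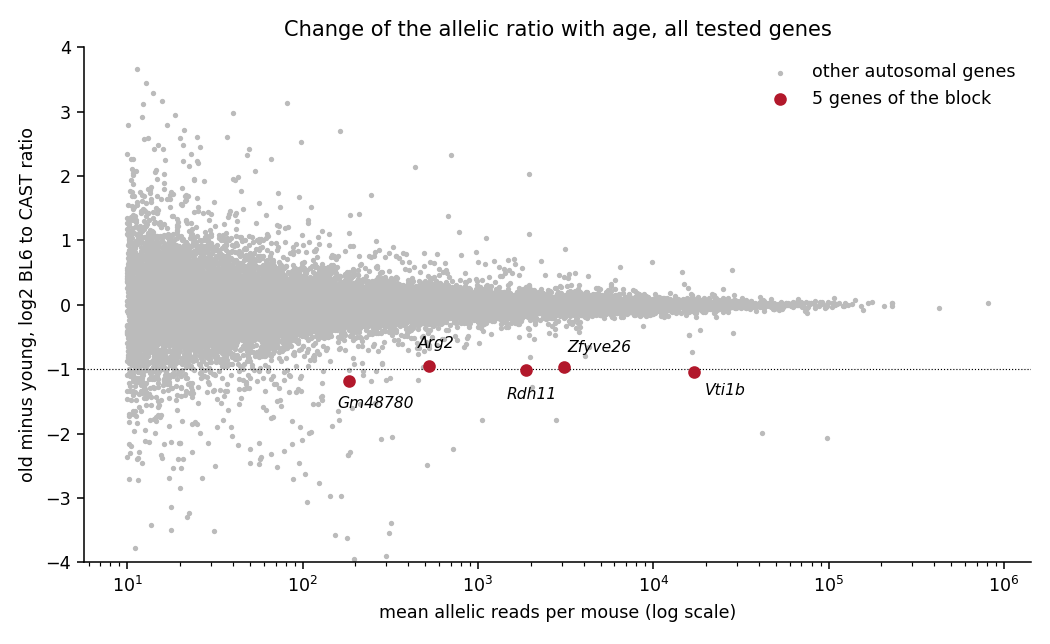
Old minus young log2 ratio of BL6 to CAST counts of 24707 autosomal genes by mean allelic counts per mouse (log scale), with the 5 genes in red and a dotted line at -1; 3 genes lie beyond the plotted range of -4 to 4. The 5 genes, which were chosen by this change, lie near the line. Other genes also had values of -0.9 or lower.

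The genes outside the block whose BL6 share per mouse was nearest to that of Vti1b were Mill2, Moxd1, Ucma, Gm11615 and Gm49391, each on another chromosome. Their mean absolute difference from Vti1b over the 11 mice was 4.27, 4.603, 4.85, 4.94 and 5.15 points in that order, and that of Arg2 was 5.01 points. Mill2 had mean BL6 shares of 32.9% ± 4.74 in old (SD, n = 5) against 39.9% ± 2.12 in young mice (SD, n = 6). All 5 had a smaller difference between the age means than Vti1b, and they were found among 19578 genes by this measure alone.

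The other genes of the pathways were taken from lists that were drawn up with earlier results of these data known. None of the listed genes passed for total level by age in edgeR, in either direction, where 0.34% of 30568 genes did. Over all those genes 12.5% were under an unadjusted p of 0.05, and DESeq2 called 1.82% of the 28723 to which it gave an adjusted p. Among 16 tested SNARE partners of Vti1b, which include the late endosomal SNAREs, the disassembly factors and the tethering complex, the median log2 difference was 0.04 (range -0.16 to 0.34), against -0.01 over all genes. There, 2 were under an unadjusted p of 0.05, a share near that over all genes, and 0 were called by DESeq2. Napa, which helps take spent SNARE complexes apart, had the largest difference, at 123.3 ± 11.6 CPM in old (SD, n = 5) and 97.2 ± 16.96 CPM in young mice (SD, n = 6; edgeR adjusted p = 0.343). Vps11, of the tethering complex, differed by 0.19 (edgeR adjusted p = 0.355).

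Of 19 tested retinoid genes, 3 were under an unadjusted p of 0.05 in edgeR, against 12.5% of all genes. DESeq2 called 2, Rdh12 and Stra6, against 1.82% of all genes. The median was 0.04 (range -0.73 to 1.08). Rdh12 lies inside the block on chromosome 12 and gave the upper end of that range, so its values are not separate from the block. Stra6, the retinol uptake receptor, had an old mean of 17.3 CPM and a young mean of 9.17 CPM (log2 difference 0.94, SE 0.237, edgeR adjusted p = 0.175). Rbp4, the carrier of retinol in blood, was at 3.26 CPM and 5.32 CPM (edgeR adjusted p = 0.321).

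Of 20 arginine and polyamine genes, 2 were under an unadjusted p of 0.05 in edgeR and 0 were called by DESeq2, with a median of 0.04 (range -0.29 to 0.59). Gatm, which uses arginine for creatine synthesis, had an old mean of 63.8 CPM and a young mean of 50.4 CPM (edgeR adjusted p = 0.333). Slc25a29, a mitochondrial carrier of basic amino acids, was at 7.85 CPM and 5.78 CPM (edgeR adjusted p = 0.365). Of 20 spastizin partners and other spastic paraplegia genes, 2 were under an unadjusted p of 0.05 in edgeR and 0 were called by DESeq2, with a median of -0.01 (range -0.54 to 0.31). Ap5z1, a subunit of AP-5, had an old mean of 18.3 CPM and a young mean of 14.7 CPM (edgeR adjusted p = 0.390).

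For BL6 share by age, 0 of 16 SNARE partners, 0 of 17 retinoid genes, 0 of 18 arginine and polyamine genes and 0 of 20 spastizin partners passed in edgeR or DESeq2. Under an unadjusted p of 0.05 in edgeR were 0, 3, 3 and 0 of them, against 7.97% of 24707 genes. The 3 retinoid genes include Rdh12, which lies inside the block. Napa, for example, had mean BL6 shares of 43.8% in old and 45.0% in young mice.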

How the data were processed

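RNA-seq of the hippocampus of 11 mice was analysed from 3 tables deposited by the authors. Per the submitters' processing notes, reads were handled with bcl2fastq 2.20, Trim Galore 0.6.6, HISAT2 2.1.0, SAMtools 1.10 and featureCounts of Subread 2.0.0 on GRCm38. The method of allele assignment, the annotation and the strand setting are not given in the sources used here. Deposited by the authors were whole-number counts per gene, counts per gene and allele (columns named i4fb, taken as BL6, and cast, per the file headers), and TPM per gene. Samples were grouped by the labelled age category, and replicate numbers follow accession order. The p-values of total level set a difference against the spread between mice. Those of the allelic fit set it against the spread of the allelic ratio between mice. Those of the assigned share set it against all splits of the mice.

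Total counts of all 11 mice were fitted with edgeR 4.0.16 (TMM, filterByExpr, quasi-likelihood test, terms for age and mother), with the Benjamini-Hochberg adjustment over all genes tested and a threshold of 0.05, and the interaction in a fit of its own. Allelic counts, 2 columns per mouse, were fitted with the mouse as a block, the maternal and the BL6 copy as terms, and the product of each with age, with the mouse's allelic total as library size, over autosomal genes averaging 10 or more allelic counts. Reads from any region without strain differences do not enter the share. CPM of an allele is scaled to the allelic counts of the mouse, and total CPM is TMM-scaled. Of 55401 genes, 55141 matched GENCODE M21. Promoters for 3 of the 5 genes were matched in RefSeq (GRCm38.p6). The share of counts assigned was tested with 100 or more total counts in every mouse. DESeq2 1.42.0, other filters and scalings, and leaving out each mouse or the 3 striatum-rich libraries were the alternatives. The steps were tested on simulated data. Named are the 5 genes, the 5 nearest tested genes on each side, the 5 genes nearest to Vti1b in share, and up to 4 genes of each list by smallest p. The genes and lists were chosen with earlier results of these data known.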

Additional observations from a re-analysis of the deposited data

Results flagged for a closer look

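The BL6 share of Gm48780 in old replicate 1, 14.1%, stood apart from the other 4 old mice, the nearest of which was at 18.02%. The gap was 0.733 of the range of the group. It was the only one of 50 groups of values looked at in which a mouse stood apart by this measure, and chance flags about 1 group in 20. The share rests on 36 BL6 counts among 255 allelic counts.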

How the results depend on the processing

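Old and young mice do not overlap in BL6 share in any of the 5 genes, so leaving out mice cannot turn its direction. The old minus young difference ran over the mice left out from -13.4 to -12.2 points for Arg2, -16.8 to -13.6 for Gm48780, -16.0 to -15.3 for Vti1b, -17.8 to -17.0 for Rdh11 and -16.5 to -16.0 for Zfyve26. In the allelic fit that chose the genes, whose calls support nothing here, Gm48780 was no longer called without old replicate 3, old replicate 4 or the striatum-rich libraries. The number of genes called for BL6 share by age, 41, was 212 with a mean of at least 1 allelic count, 23 without the striatum-rich libraries (fewer samples), and 22 to 169 without 1 mouse, the highest without young replicate 5. The 104 genes called for total level by age (70 higher, 34 lower) were 522 with DESeq2 (272 higher, 250 lower), 15 without the striatum-rich libraries, and 14 (without old replicate 4) to 244 (without young replicate 5) with 1 mouse left out. Interaction calls were 52 with DESeq2 and 0 to 2 with 1 mouse left out. Calls for the maternal allele by age, 19, ran from 11 to 49, those for the maternal allele, 216, from 208 to 239, and those for the mother's strain, 63, from 43 to 65. Where not said otherwise, the cause of these changes was not tested.

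Differences near 0 changed sign when 1 mouse was left out. The log2 ratio of maternal to paternal counts ran from -0.0206 to 0.0553 for Arg2 and from -0.0154 to 0.0109 for Rdh11. Its change with age ran from -0.0669 to 0.173 for Gm48780 and from -0.0117 to 0.0409 for Rdh11. The difference by mother's strain ran from -0.0675 to 0.0923 for Arg2, -0.0332 to 0.0815 for Rdh11 and -0.00117 to 0.135 for Gm48780. No call was made among these. No paired analysis was possible because the labels give no replicate number shared between the age groups. Depth limits Rad51b, Gm17194, Gm17195 and Rdh12 most, and among the 5 genes Gm48780.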
